A study of Mus musculus with 5 samples.

Results

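Integrin subunits were examined in embryos with and without Oct4. The 10 subunits are Itga3, Itga5, Itga6, Itga9, Itgav, Itgb1, Itgb3, Itgb4, Itgb5 and Itgb8, each taken as the row of the deposited count table that carries its symbol, so that they make up 10 of 49671 genes. RNA came from single mouse embryos at about E6.75, with the epiblast and the visceral endoderm (VE) kept together and the extra-embryonic ectoderm (ExE) cut away. The 2 SO+ embryos were Sox2Cre-/-; Oct4 fl/+ and the 3 SO− embryos were Sox2Cre+/-; Oct4 fl/-, all on a mixed strain background, so every embryo carried a floxed Oct4 allele. Values are listed by embryo number, 1 and 2 for SO+ and 1, 2 and 3 for SO−. Sox2Cre is a transgene whose Sox2 promoter recombines loxP sites mainly in epiblast cells, leaving the VE largely outside the deletion. No SO+ embryo carried Cre, so Cre and the loss of Oct4 cannot be told apart. The question put to the subunits was whether their RNA differed between SO− and SO+ embryos.

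Integrins are adhesion receptors made of an alpha and a beta chain, and the pairing sets which matrix protein is bound. Itga5 with Itgb1 forms the classical fibronectin receptor, Itga3 and Itga6 with Itgb1 bind laminins of the basement membrane, and Itga6 with Itgb4 builds hemidesmosomes. Itgav with Itgb1, Itgb3, Itgb5 or Itgb8 binds proteins that carry the RGD motif, among them some latent forms of TGF-beta. At gastrulation the epiblast rests on a laminin-rich basement membrane that separates it from the VE, and nascent mesoderm moves over a fibronectin-containing matrix after leaving it.

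The promoters of 3 subunits are given as examples of the roles compared below: Itgb1 is the common beta chain, Itga5 the fibronectin-binding alpha chain and Itga3 a laminin-binding alpha chain. The sequences are from RefSeq on GRCm38.p6 and are written 5′ to 3′ on the strand of the gene, with GC boxes (GGGCGG or its complement CCGCCC) in capitals. The Itgb1 window is chr8:128685404-128685653 on the plus strand, the Itga5 window chr15:103366792-103367041 on the minus strand and the Itga3 window chr11:95076802-95076964 on the minus strand. The Itgb1 and Itga5 windows are the 250 bases before the RefSeq start, and 87 bases were left off the Itga3 window because GENCODE places them inside the gene.
Itgb1: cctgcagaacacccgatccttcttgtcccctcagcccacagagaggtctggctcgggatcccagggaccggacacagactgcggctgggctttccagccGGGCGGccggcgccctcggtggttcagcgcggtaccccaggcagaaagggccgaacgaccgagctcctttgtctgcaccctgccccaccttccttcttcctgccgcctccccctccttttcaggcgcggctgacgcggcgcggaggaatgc
Itga5: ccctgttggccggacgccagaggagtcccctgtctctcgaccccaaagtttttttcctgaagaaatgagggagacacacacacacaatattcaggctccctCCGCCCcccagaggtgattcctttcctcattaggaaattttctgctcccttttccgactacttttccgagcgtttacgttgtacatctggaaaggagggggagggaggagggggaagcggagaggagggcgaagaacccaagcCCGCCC
Itga3: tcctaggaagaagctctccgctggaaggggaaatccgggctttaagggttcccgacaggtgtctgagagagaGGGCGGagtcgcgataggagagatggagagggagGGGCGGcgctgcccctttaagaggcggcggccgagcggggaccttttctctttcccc
RefSeq promoter entries, which run from 250 bases before to 50 after the start, existed for 7 of the 10 subunits. Itga6, Itgb3 and Itgb4 had no entry. The octamer ATGCAAAT, the classical POU factor motif, was in 0 of the 7 genes' entries on either strand, against 1.74% of all 32851 promoter entries. The GC box was in the entries of Itga3, Itga5, Itgav, Itgb1 and Itgb5 and in 35.7% of all entries. The subunit entries ran from 52.3% to 67.3% GC, beside a median of 52.7% over all entries. The part of GC content in the motif counts was not tested. These counts describe the letters in the windows and carry nothing about Oct4 binding.

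Oct4 is encoded by Pou5f1, and its RNA was checked first. Pou5f1 stood at 920.2 and 435.3 CPM (counts scaled to a common library total of 1e6) in the SO+ embryos against 27.8, 12.5 and 43.7 CPM in the SO− embryos. The SO− embryos therefore held 4.10%, 1.85% and 6.44% of the SO+ mean, and the genotypes did not overlap. The log2 fold change of SO− over SO+ was −4.43 (SE 0.33, edgeR adjusted p = 3.94e-05). Total counts were 27538119 and 27047148 in the SO+ libraries and between 1117566 and 4191498 in the SO− libraries, so that 3 counts correspond to 0.109 and 0.111 CPM in SO+ but to 0.726, 2.68 and 0.716 CPM in the SO− embryos. All SO+ libraries carried a different second index from all SO− libraries, and neither index nor depth can be told apart from genotype. In these bulk samples fewer cells of a type and less RNA per cell cannot be told apart either.

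Itgb1 was the most abundant subunit and was higher in every SO− embryo than in every SO+ embryo, while the laminin-binding Itga3 and Itga6 were lower in every SO− embryo. None of the 10 subunits passed the test over all genes. Of the 12067 genes kept by the edgeR expression filter, 2.35% had an adjusted p under 0.05 (1.42% higher and 0.928% lower in SO−). Of the 10 subunits 8 were kept, all but Itgb3 and Itgb4, and 0 of these 8 were called. An unadjusted p under 0.05 was found for 3 of the 8 (Itgb1 higher, Itga3 and Itga6 lower), against 13.7% of all genes tested. DESeq2 called 1 of 9 subunits, Itgb1, against 2.54% of the genes it gave an adjusted p, and had 3 at an unadjusted p under 0.05, against 10.2%. With limma-voom 0 of 8 were called, against 0.754% of all genes, and 3 had an unadjusted p under 0.05, against 12.1%.

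Among the 8 subunits 4 had a fitted fold change above 0 and 4 below it, whereas mean CPM was higher in SO− for 6 and lower for 2, since Itgb5 and Itgb8 had fitted values just below 0 but slightly higher means in SO−. Their median log2 fold change was 0.17, beside −0.0019 for all genes tested, and the median size of the change irrespective of sign was 0.44, beside 0.21. CPM did not overlap between genotypes for 2 subunits that were higher in SO− (Itgb1 and Itga9), against 13.9% of all genes tested, and for 2 that were lower (Itga3 and Itga6), against 15.6%. The ranges of Itga5, Itgav, Itgb5 and Itgb8 overlapped. The plot of CPM in each embryo shows how far counting error alone reaches in the smaller libraries.

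**Figure D1:**
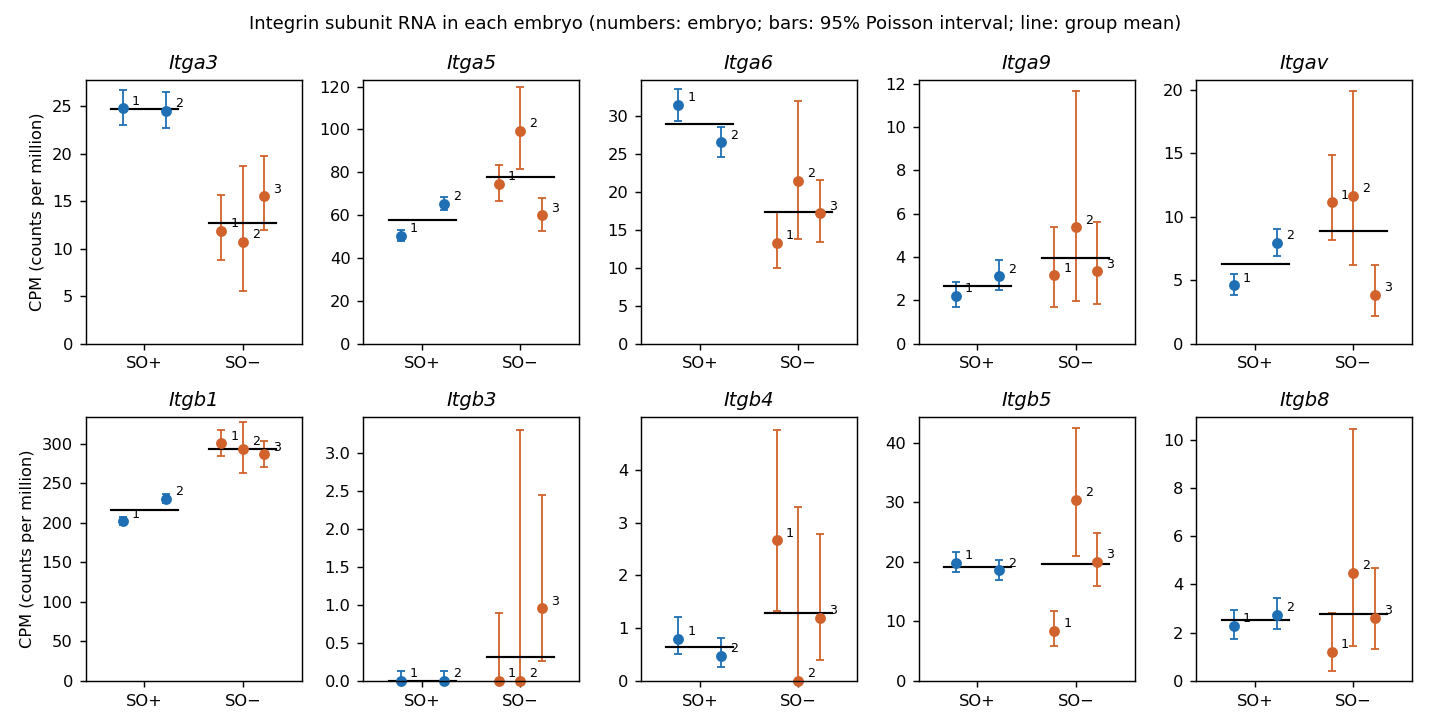
RNA level of each of the 10 integrin subunits (y axis, CPM; 1 panel per gene, each with its own scale from 0) in 2 SO+ (blue) and 3 SO− (orange) embryos, numbered as in the labels. Points are embryos, vertical bars the 95% Poisson interval of the count and horizontal lines the group mean; Itgb1 lies higher and Itga3 and Itga6 lie lower in all SO− embryos, whereas Itgb5 in SO− embryos runs from 8.47 to 30.4 CPM.

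Itgb1 (ENSMUSG00000025809, chr8:128685654-128733200, plus strand, GRCm38) pairs with all 5 alpha chains examined. Its level was 201.8 and 230.3 CPM in the SO+ embryos against 300.6, 293.5 and 286.3 CPM in the SO− embryos. The SO− embryos lay close together and above both SO+ embryos, and the Poisson intervals of the counts did not meet across genotypes (196.6 to 236.1 CPM over the SO+ embryos, 262.6 to 327.0 CPM over the SO− embryos). The means were 216 ± 20.1 CPM (SD, n = 2) and 293 ± 7.17 CPM (SD, n = 3), a ratio of 1.36. The log2 fold change was 0.45 (SE 0.11, 95% interval 0.21 to 0.68), with an unadjusted p of 0.00122 and an edgeR adjusted p of 0.0512, just outside the threshold. It came within the threshold with DESeq2 (adjusted p = 0.0162), with RLE scaling in edgeR (0.0495) and with the replicate number as a block (0.00509). That block takes SO− embryo 3 out of the genotype comparison. With both SO+ embryos kept, its highest edgeR adjusted p was 0.343, without SO− embryo 1. Without SO+ embryo 1 or 2, which leaves a single SO+ embryo, the log2 fold change was 0.35 or 0.55.

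Itga3 (ENSMUSG00000001507, chr11:95044474-95076801, minus strand) encodes the alpha chain of a laminin receptor. The SO+ embryos had 24.8 and 24.5 CPM, against 11.9, 10.7 and 15.5 CPM for SO−. The SO+ embryos were nearly equal, and the highest SO− embryo remained well below them. The group means were 24.7 ± 0.205 CPM (SD, n = 2) and 12.7 ± 2.5 CPM (SD, n = 3), a ratio of 0.515. On the log2 scale the difference was −0.91 (SE 0.25, 95% interval −1.45 to −0.37; edgeR adjusted p = 0.0846). The SO− values rest on 49, 12 and 65 counts.

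Itga6 (ENSMUSG00000027111, chr2:71745616-71858416, plus strand), the other laminin-binding alpha chain, had the same order of genotypes. It was measured at 31.4 and 26.5 CPM in the SO+ embryos against 13.3, 21.5 and 17.2 CPM in the SO− embryos. The groups did not overlap, but the interval of SO− embryo 2, from 24 counts, reached from 13.8 to 32.0 CPM and covered both SO+ values. The ratio of the means was 0.597 and the log2 fold change −0.80 (SE 0.24, 95% interval −1.32 to −0.27; edgeR adjusted p = 0.131).

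Itga5 (ENSMUSG00000000555, chr15:103344286-103366763, minus strand), the fibronectin-binding chain, was the most abundant alpha subunit by read count and per length in every embryo. Its CPM values were 50.3 and 65.3 in the SO+ embryos against 74.7, 99.3 and 59.9 in the SO− embryos. The SO− embryos 1 and 2 were above both SO+ embryos, whereas SO− embryo 3 fell between them. The log2 fold change was 0.39 (SE 0.20, 95% interval −0.03 to 0.82; edgeR adjusted p = 0.412), and the ranges of the genotypes overlapped.

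Itgav, the alpha chain of the RGD-binding receptors, was lower than these. It stood at 4.58 and 7.91 CPM in the SO+ embryos against 11.1, 11.6 and 3.82 CPM in the SO− embryos. SO− embryos 1 and 2 were above both SO+ embryos and SO− embryo 3 was below both, and the log2 fold change was 0.44 (SE 0.50; edgeR adjusted p = 0.794), between 0.08 without SO+ embryo 1 and 0.89 without SO+ embryo 2. The intervals of SO− embryo 1 (8.15 to 14.8 CPM) and SO− embryo 3 (2.18 to 6.20 CPM) did not meet, so these embryos of the same genotype differed by more than counting error. SO− embryo 3 had the most Pou5f1 RNA of the SO− embryos and was the nearest of them to the SO+ embryos for Itga3, Itga5 and Itgb1, but for Itga6 the nearest was SO− embryo 2, which had the least. The part of residual Pou5f1 RNA in these differences was not tested.

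Itga9, whose product pairs with Itgb1 and binds tenascin-C and other ligands, was a low-level gene. The values were 2.22 and 3.11 CPM in the SO+ embryos against 3.14, 5.37 and 3.34 CPM in the SO− embryos. The groups were separated by the gap between 3.11 and 3.14 CPM alone, and the SO− values came from 13, 6 and 14 counts. The log2 fold change was 0.48 (SE 0.56; edgeR adjusted p = 0.801).

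Itgb5, the most abundant beta chain after Itgb1, differed more within SO− embryos than between genotypes. It was at 19.9 and 18.6 CPM in the SO+ embryos against 8.47, 30.4 and 20.04 CPM in the SO− embryos. The highest SO− value was 3.59 times the lowest, and the intervals of SO− embryo 1 (5.90 to 11.8 CPM) and SO− embryo 2 (21.1 to 42.5 CPM) were apart. The group means were 19.2 and 19.6 CPM, and the fitted log2 fold change was −0.09 (SE 0.37, 95% interval −0.89 to 0.72; edgeR adjusted p = 0.961). It took the opposite sign, 0.32, without SO− embryo 1.

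Itgb8, whose receptor with Itgav binds latent TGF-beta, had 2.29 and 2.74 CPM in the SO+ embryos against 1.21, 4.47 and 2.62 CPM in the SO− embryos. The SO− values surrounded the SO+ values and rested on 5, 5 and 11 counts. The log2 fold change was −0.04 (SE 0.65, 95% interval −1.45 to 1.36; edgeR adjusted p = 0.992), an interval wide enough to hold a change of more than 1 on the log2 scale in either direction, and its sign turned without SO− embryo 1 (0.38) or SO+ embryo 2 (0.10) and with DESeq2 (0.0037).

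The last 2 subunits did not pass the expression filter of the edgeR fit. Itgb4, the partner of Itga6 in hemidesmosomes, had 22 and 13 counts in the SO+ embryos against 11, 0 and 5 counts in the SO− embryos. SO− embryo 1, at 2.66 CPM (95% Poisson interval 1.33 to 4.76), was above the intervals of both SO+ embryos (0.501 to 1.21 and 0.256 to 0.822), the interval of SO− embryo 3 overlapped them, and the floor of SO− embryo 2, 3 counts or 2.68 CPM, was above every value seen. DESeq2, which kept the gene, gave a log2 fold change of 1.17 (SE 1.32, adjusted p = 0.961), and edgeR with a filter of 1 CPM in 2 embryos gave 1.25 (SE 0.97, adjusted p = 0.668). Itgb3, the beta chain of the vitronectin and platelet receptors, was at 0 counts in both SO+ embryos and in SO− embryos 1 and 2, and had 4 counts (0.954 CPM) in SO− embryo 3. Without a filter on low counts its unadjusted p was 0.0516 (edgeR adjusted p = 0.514).

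**Figure D2:**
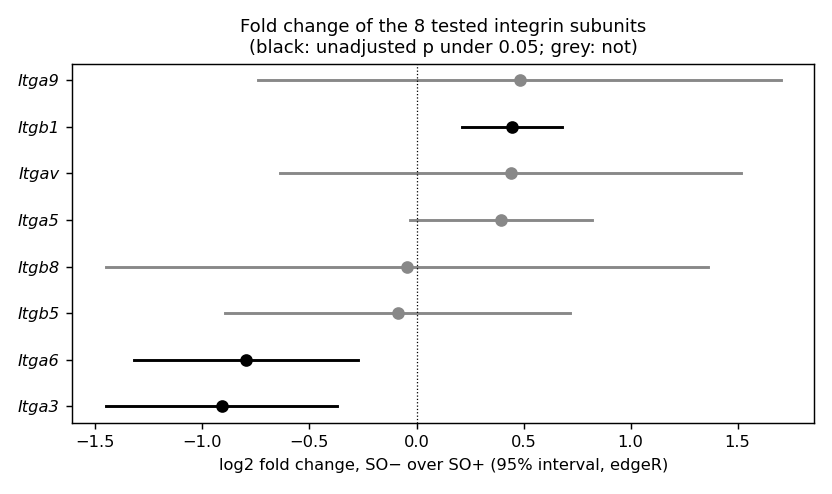
Log2 fold change of SO− over SO+ from edgeR (x axis) for the 8 subunits tested (y axis), with 95% intervals. The intervals of Itgb1 (0.21 to 0.68), Itga3 (−1.45 to −0.37) and Itga6 (−1.32 to −0.27) do not cross 0, those of the other subunits do, and no subunit had an adjusted p under 0.05.

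Levels of different subunits were compared per length, as FPKM (CPM per kilobase of exon). The order by mean FPKM was Itgb1, Itga5, Itgb5, Itga3, Itga6, Itgav, Itga9, Itgb8, Itgb4 and Itgb3. Itgb1 ran from 49.5 to 73.7 FPKM over the 5 embryos and Itga5 from 10.2 to 20.1 FPKM, with no overlap. Itga5 was also apart from Itgb5 (2.38 to 8.56 FPKM), and Itga6 (1.47 to 3.48 FPKM) from Itgav (0.355 to 1.08 FPKM). All other neighbours in the order overlapped. Itga3 was above Itga6 in 4 of 5 embryos by this measure but in 0 of 5 when the longest transcript was used as the length, so the order of the laminin-binding chains depends on the length chosen.

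Within an embryo, the share that each chain takes of the summed FPKM of its family does not depend on how libraries are scaled. Itga5 made up 54.4% and 61.2% of the 5 alpha chains in the SO+ embryos against 75.2%, 76.9% and 69.2% in the SO− embryos. Every SO− embryo lay above both SO+ embryos, and the mean difference was 15.9 percentage points. An exact two-sided permutation test over the embryos gave p = 0.1, which is the lowest value these group sizes can reach. In shares of reads, without length, Itga5 took 44.4% (95% Clopper-Pearson interval 42.6 to 46.2) and 51.2% (49.6 to 52.9) in the SO+ embryos against 65.5% (61.0 to 69.8), 66.9% (59.2 to 74.0) and 60.0% (55.2 to 64.8) in the SO− embryos. The intervals cover counting error only.

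The laminin-binding chains took a smaller part of the alpha sum in each SO− embryo. Shares of a family add up to the whole in each embryo, so these shares and that of Itga5 are not independent results. The share of Itga3 was 23.2% and 19.9% in the SO+ embryos against 10.3%, 7.18% and 15.5% in the SO− embryos (exact permutation p = 0.2). The share of Itga6 was 18.6% and 13.6% in the SO+ embryos against 7.32%, 9.09% and 10.8% in SO− embryos (exact permutation p = 0.1). Neither share overlapped between genotypes. Itgav took between 2.02% and 5.14% and Itga9 between 1.54% and 2.67% over the 5 embryos. Over the alpha and beta families 10 such shares were tested, and no adjusted p was below the threshold, since the smallest raw p was 0.1.

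The ratio of Itga5 to the sum of Itga3 and Itga6 was formed after their values had been seen and is given as a description. In FPKM it was 1.30 and 1.83 in the SO+ embryos against 4.27, 4.73 and 2.63 in the SO− embryos. SO− embryo 3 again lay nearest to the SO+ embryos.

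Among the beta chains Itgb1 dominated in each embryo. Its share was 89.3% and 91.1% in the SO+ embryos against 96.2%, 88.9% and 91.9% in the SO− embryos, with overlap (exact permutation p = 0.6). Itgb5 supplied most of the remainder, at 10.1% and 8.43% in the SO+ embryos against 3.11%, 10.6% and 7.39% in the SO− embryos.

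**Figure D3:**
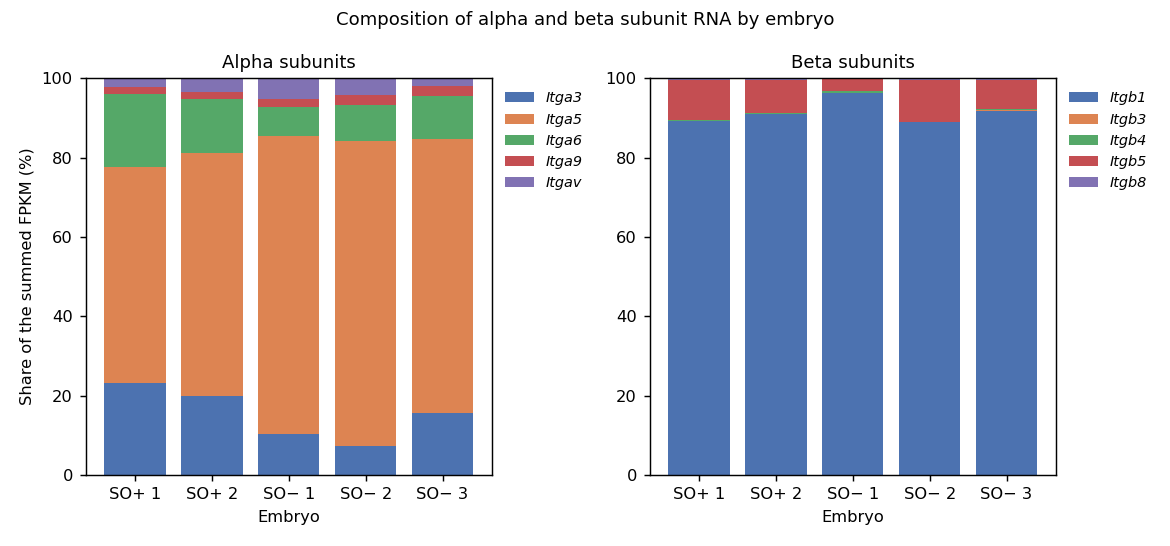
Share of each subunit in the summed FPKM (y axis, percent) of the 5 alpha chains and of the 5 beta chains in each of the 5 embryos (x axis). Itga5 takes 54.4% and 61.2% in the SO+ embryos against 69.2% to 76.9% in the SO− embryos, and Itgb1 takes 88.9% to 96.2% of the beta sum in all embryos.

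The summed level of all 10 subunits, in CPM scaled by TMM factors, was 337 and 379 in the SO+ embryos against 429, 474 and 414 in the SO− embryos. All SO− sums exceeded both SO+ sums, with a ratio of means of 1.23 (exact permutation p = 0.1). The beta chains, mostly Itgb1, had a ratio of 1.34 (exact permutation p = 0.1). The alpha sum was 113 and 127 in the SO+ embryos against 115, 148 and 100.4 in the SO− embryos, with a ratio of 1.01 (exact permutation p = 0.9).

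Of 17 further integrin genes 2 were tested, and 0 were called by edgeR, DESeq2 or limma-voom. In edgeR 1 of the 2 had an unadjusted p under 0.05, against 13.7% of all genes tested. Itga8, an alpha chain that binds nephronectin, had 0.254 and 1.18 CPM in the SO+ embryos against 9.19, 0 and 3.34 CPM in the SO− embryos (log2 fold change 2.73, SE 0.96; edgeR adjusted p = 0.200). Itga1, a collagen-binding chain, had 3.30 and 3.81 CPM in the SO+ embryos against 1.45, 2.68 and 2.39 CPM in the SO− embryos, without overlap, and a log2 fold change of −0.78 (edgeR adjusted p = 0.637). No read was counted for Itga2, Itga11, Itgad, Itgam, Itgax, Itgb2l or Itgb6 in any embryo.

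Of 73 tested genes for ligands, adaptors and partners of integrins, including those 2 subunits, 3 were called higher and 0 lower in SO− embryos. That is a share of 4.11% beside the 2.35% over all genes. The 3 were Tgfb2, Krt8 and Krt18, and the 2 keratins among them are not structural parts of the hemidesmosome. Among 8 tested RGD and TGF-beta ligands, whose median log2 fold change was 0.60, 1 was called. This was Tgfb2, a TGF-beta ligand, at 0.872 and 2.29 CPM in the SO+ embryos against 9.92, 10.7 and 8.11 CPM in the SO− embryos, a log2 fold change of 2.58 (SE 0.56, edgeR adjusted p = 0.0284). Its call was lost without SO+ embryo 1 (adjusted p = 0.112), without SO− embryos 1 (0.209), 2 (0.193) or 3 (0.0552), and with limma-voom (0.0621). Fn1, which encodes fibronectin, the ligand of the Itga5 and Itgb1 receptor, had 71.5 and 98.2 CPM in the SO+ embryos against 216, 189 and 92.3 CPM in the SO− embryos. Its groups overlapped because SO− embryo 3 was lower than SO+ embryo 2, and its log2 fold change was 0.95 (edgeR adjusted p = 0.0964). Mfge8, a secreted RGD protein, had a log2 fold change of 0.31 (edgeR adjusted p = 0.429).

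Among 7 tested laminin chains 0 were called by edgeR, DESeq2 or limma-voom, and their median log2 fold change was 0.06. In edgeR 1 had an unadjusted p under 0.05, against 13.7% of all genes tested. Lama5 stood at −0.17 and Lamb1 at 0.36 on the log2 scale (edgeR adjusted p = 0.759 and 0.213). On the hemidesmosome list 2 of 5 tested genes were called higher, against 1.42% of all genes tested. They were Krt8 and Krt18, which are keratins of simple epithelia such as the VE rather than structural parts of the hemidesmosome. Krt8 was at 260 and 316 CPM in the SO+ embryos against 519, 607 and 439 CPM in the SO− embryos, a log2 fold change of 0.85 (edgeR adjusted p = 0.00520). Krt18 had a log2 fold change of 0.90 (edgeR adjusted p = 0.00246). Without SO− embryo 1 or 2 these calls were lost, with adjusted p of 0.1003 and 0.119 for Krt8 and 0.0648 and 0.0745 for Krt18.

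No regulator or partner of the receptor was called by edgeR or limma-voom in the remaining lists, and DESeq2 called only Zyx, an actin-linked adaptor, as lower in SO−. The counts at an unadjusted p under 0.05 that follow stand beside the 13.7% of all genes tested. Of 20 tested activators and adaptors, which link beta tails to actin, 0 were called and 6 had an unadjusted p under 0.05, with a median log2 fold change of 0.10. The most abundant, Actn4 and Flna, stood at 0.05 and −0.15. Of 17 adhesion kinases and scaffolds 0 were called and 4 had an unadjusted p under 0.05 (median 0.12; Crk 0.01 and Pak2 0.18). Of 5 integrin inhibitors 0 were called and 1 had an unadjusted p under 0.05 (median −0.09; Krit1 −0.06 and Fblim1 −0.33). Of 10 tetraspanins and lateral partners 0 were called and 1 had an unadjusted p under 0.05 (median 0.09; Bsg 0.01 and Slc3a2 0.07).

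**Figure D4:**
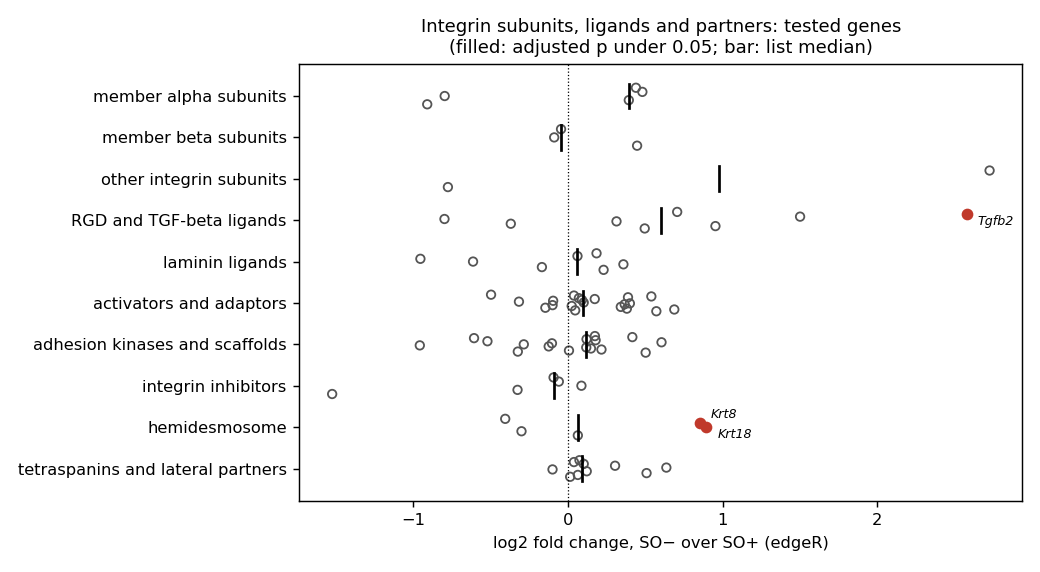
Log2 fold change of SO− over SO+ from edgeR (x axis) for each tested gene of the integrin subunits, their ligands and their partners (y axis, by list), with list medians as bars. Filled points have an adjusted p under 0.05 and are Tgfb2, Krt8 and Krt18; the subunits at the top are open points on both sides of 0.

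Sums of cell type markers are given beside these results. The epiblast sum was lower and the ExE sum higher in every SO− embryo, and the other sums overlapped between genotypes. Most of the ExE sum came from Rhox5 (96.4 and 126 CPM in SO+ against 138, 146 and 130 CPM in SO− embryos). Cdx2 overlapped between genotypes (2.43 and 5.88 CPM in SO+ against 8.71, 7.16 and 2.39 CPM in SO− embryos). Of 5 tested ExE markers 0 were called, with 3 fold changes above 0 and 2 below it. The 10 epiblast markers summed to 6798 to 7683 CPM in SO+ and 3379 to 5129 CPM in SO− embryos, and none was at 0. Of the 10, 7 had a log2 fold change below 0 and 3 above it. Among them 4 were called lower (L1td1, Utf1, Slc7a3 and Dnmt3b), against 0.928% of all genes tested. Dnmt3b held the largest part of the sum, with means of 3623 CPM in SO+ and 1813.5 CPM in SO− embryos. Next came Pim2, at −0.70 on the log2 scale (edgeR adjusted p = 0.143). The 14 VE markers summed to 4892 and 4925 CPM in SO+ and 6756, 6957 and 4554 CPM in SO− embryos, and none was at 0. Of the 14, 12 had a log2 fold change above 0, with a median of 0.36 beside −0.0019 for all genes tested. An edgeR unadjusted p under 0.05 was found for 5, against 13.7% of all genes tested. Spink1 alone of the 14 was called, higher, against 1.42% of all genes tested. Apoe and Apoa1 stood at 0.24 and 0.42 on the log2 scale (edgeR adjusted p = 0.481 and 0.319). Sums in SO+ and SO− embryos were 112 to 145 and 147 to 170 CPM for 10 ExE markers. For 7 parietal endoderm markers they were 446 to 488 and 485 to 592 CPM. Sparc and Lamb1 of that list stood at 0.18 and 0.36 on the log2 scale (edgeR adjusted p = 0.576 and 0.213). For 8 mesoderm markers the sums were 50.8 to 167 and 89.0 to 183 CPM. Of the 5 tested, 4 had a log2 fold change above 0 and 1 below it, with a median of 2.09. An edgeR unadjusted p under 0.05 was found for 3, against 13.7% of all genes tested. Hand1 and Etv2 were called higher, against 1.42% of all genes tested. The 2 most abundant, Lefty2 and Mesp1, stood at 0.16 and −0.61 on the log2 scale (edgeR adjusted p = 0.938 and 0.501). Of 8 maternal blood and immune markers 6 were at 0 in all embryos and the sum stayed at or below 0.259 CPM, and 5 decidua markers summed to 3.16 to 9.19 CPM with Prl8a2 at 0. The part of these markers in the subunit differences was not tested.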

How the data were processed

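RNA-seq of 2 SO+ and 3 SO− embryos was used, each embryo being a separate sample grouped by its label. SmartSeq2 libraries carried no molecular identifiers. Adapter trimming (cutadapt), alignment by STAR to the GRCm38/mm10 build and gene-level counting by HTSeq-count with Ensembl annotation were done by the authors, whose deposited table holds raw whole-number read counts of 49671 genes. The strand setting is not given in the sources used here. Itgav shares 634 exon bases with the opposite-strand gene Gm13684 (0 counts in the 5 embryos) and Itgb4 shares 537 with B230344G16Rik (1 count).

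The counts were fitted with edgeR 4.0.16 in R 4.3.3 (TMM scaling, filterByExpr with a minimum count of 10, a quasi-likelihood test of genotype with no covariate, Benjamini-Hochberg adjustment over all 12067 genes tested, threshold 0.05). DESeq2 1.42.0, which the study used, limma-voom (limma 3.58.1), RLE scaling, other filters, the replicate number as a block, thinning of SO+ libraries down to the average SO− depth and each embryo left out were alternatives. Standard errors were derived from the size of each fold change and the square root of its F statistic. CPM per embryo used the library total. FPKM used the union of exons in GENCODE M21, which matched 99.3% of genes. Intervals were Poisson or Clopper-Pearson at 95% and floors 3 counts, covering counting error only. Single values were compared by exact two-sided permutation over the 10 splits of the embryos. Libraries of the same genotype differed beyond counting error (chi-square over its degrees of freedom 30.3 for SO+, 2.78 to 5.58 for SO−). The fits were tested on simulated data. Named genes were Pou5f1, the 10 subunits, and from each list the called genes and the 2 tested genes with the highest mean CPM. Zyx and the other subunits listed at 0 were named after their values were seen. The subunits and lists were chosen with earlier results of these data known. Oct4 binding data were not used here.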

Additional observations from a re-analysis of the deposited data

How the results depend on the processing

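The count of called subunits, 0, became 1 with DESeq2 or RLE scaling and 3 with the replicate number as a block. It was 0.5 (median of 10 draws) with SO+ libraries thinned and stayed at 0 with each SO− embryo left out. The 3 calls in the other integrin lists became 10 with the block and ran from 0 to 8 with an embryo left out (8 without SO+ embryo 2, 0 without SO− embryo 1 or 2). Itgb1 came within the threshold with DESeq2 (log2 fold change 0.44), RLE scaling (0.45) and the replicate block (0.47). Its log2 fold change ran from 0.35 to 0.55 with an embryo left out. Itgb8 turned sign with DESeq2 (0.0037) and ran from −0.38 to 0.38 with an embryo left out, and Itgb5 ran from −0.42 to 0.32. Differences in share ran from 0 to 0.106 percentage points for Itgb3, from −0.0468 to 0.201 for Itgb4 and from −0.160 to 0.0191 for Itgb8. The cause of these changes was not tested. Itgb8 did not pass the filter in thinned libraries. Itga3 and Itga6 kept a negative and Itga5, Itga9, Itgav and Itgb1 a positive fold change in each alternative that tested them, with ranges of 0.21 to 0.59 for Itga5, 0.25 to 0.75 for Itga9 and 0.08 to 0.89 for Itgav with an embryo left out.

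The replicate numbers are shared by different animals, and nothing in the labels pairs them. Deviations of same-numbered embryos correlated at 0.00775 and 0.115, and those of differently numbered embryos at −0.133 to 0.133. With 2 SO+ embryos the deviations of one mirror those of the other, so these correlations cannot decide whether the numbers pair animals. Only SO− has an embryo numbered 3, so with the replicate block SO− embryo 3 adds nothing to the genotype estimate. With this block the log2 fold change was 0.47 for Itgb1 (edgeR adjusted p = 0.00509) and −1.11 for Itga3 (0.0153). For Itga5 it was 0.59 (0.0187). Without SO− embryo 3 and without a block the values were 0.45 for Itgb1 (0.113), −1.11 for Itga3 (0.0865) and 0.55 for Itga5 (0.223). SO− embryo 2, with 1117566 counts, limits the precision of the low subunits, and 2 embryos against 3 allow no exact p below 0.1.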
